A study of Mus musculus with 42 samples.

Results

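Basal gene expression was compared between untreated Scid and untreated wild-type (WT) pre-B cell lines of the mouse, 3 lines against 3. The arrays were chosen by their labels alone: they are the 6 of the 42 arrays of the series that were mock-treated, sampled at 2 h and labelled Scid or WT. Every line came from bone marrow of a mouse aged 3 to 5 weeks that carried the Em-Bcl2 transgene, and every line had been transformed with the retrovirus pMSCV-v-abl. Both groups therefore share the oncogenic kinase v-abl and an extra source of Bcl2, a protein that protects cells from apoptosis. The Scid mice carry a mutation of Prkdc, the gene of DNA-PKcs, and the labels list no mutated gene for WT. The same lines were also sampled 2 h after 1 Gy of gamma rays, and the series holds 5 further mutants (Atm, Mre11A, 53bp1, H2ax and Mdc1, 3 lines each). Arrays of a group are labelled as biological replicates, numbered 1, 3 and 4 for WT and 1, 2 and 3 for Scid. They do not say whether the lines of a group came from different mice. The p-values of Scid against WT then measure only spread between lines of a genotype, pooled over all genotypes on the 21 untreated arrays.

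DNA-PKcs is the kinase that, with the Ku70/Ku80 dimer, holds broken DNA ends together during non-homologous end joining (NHEJ). Developing B cells need this repair to join the breaks that the Rag1 and Rag2 recombinase makes at immunoglobulin genes, and Scid mice therefore lack mature B and T cells. Transformation by v-abl arrests cells at the pre-B stage, where they keep dividing. The Scid allele is a point mutation that shortens the protein near its end, so the level of the transcript is no check of the label.

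Levels are given as MAS5 signal, the deposited intensity of a probe set, which was scaled to a trimmed mean of 500 on each array. Differences are Scid minus WT on the log2(signal + 16) scale with their standard error (SE), so that 1 stands for a doubling and changes of dim genes are understated. They were fitted with limma over the 21 untreated arrays, and a gene was called at a Benjamini-Hochberg adjusted p under 0.05 over 11471 genes. Each SE and p-value of this fit thus rests on the spread within all genotypes, not within Scid and WT alone.

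Markers of early B cells were present in every line, while Ighm, the mu heavy chain that pre-B cells carry, was low in Scid line 2 (150, against 10752 to 24918 in the other 5 lines). Vpreb1, a part of the surrogate light chain of pro-B and pre-B cells, had signals from 19634 to 28531, and Igll1, its partner, from 10716 to 21044. Cd79a lay between 3911 and 9347, Ebf1 between 2806 and 5774 and Pax5 between 262 and 575. Median signals were 63.4 to 74.5 on the WT arrays and 68.3 to 82.9 on the Scid arrays. The ratio of 3' to 5' probes, a sign of RNA quality, overlapped for Gapdh (0.787 to 0.829 in WT, 0.766 to 0.819 in Scid) and did not for Actb (1.26 to 1.32 in WT, 1.32 to 1.38 in Scid). On the first principal component of the untreated arrays (16.8% of the variance) WT lay from -22.1 to -7.34 and Scid from -52 to -22.2, while the 53bp1, H2ax and Mdc1 lines stood apart at 6.29 to 32.9. The part of these measures in the results was not tested.

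The level of Prkdc itself overlapped between the groups. Its signals were 580, 585 and 630 in the WT lines and 584, 591 and 550 in the Scid lines, a difference of -0.06 ± 0.17 (SE, n = 3 lines a group; limma adjusted p = 0.94).

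Few genes passed the test. Of all genes tested 27 were called (0.235%), 11 higher in Scid (0.0959%) and 16 lower (0.139%), and in each of the 27 the 3 Scid arrays lay entirely above or below the 3 WT arrays, which was so for 16.4% of all genes and is nearly implied by the call. Among called genes the largest differences were those of the non-coding RNA AI506816 (higher), Pdxdc1 (lower), Abca1, 9030619P08Rik and Msh5 (higher) and Runx1 (lower). The called genes lay on 14 chromosomes, and 22 of them were protein-coding in the RefSeq annotation. The count depended on single lines: it was 57 without Scid line 1, 15 without Scid line 2, 12 without WT line 1 and 9 without WT line 3. Pdxdc1, Msh5, Runx1, AI506816, Alpl, Phf5a and Kif20a passed without each of the 6 arrays in turn, and the other 20 called genes lost the call without at least 1. A fit on the 6 arrays alone called 2 genes, of which Msh5 was 1 of the 27; Msh5 was also the only 1 of the 27 called under every alternative that tested it. An unadjusted p under 0.05 was found for 1376 genes (12%), 742 higher (6.47%) and 634 lower (5.53%).

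**Figure D1:**
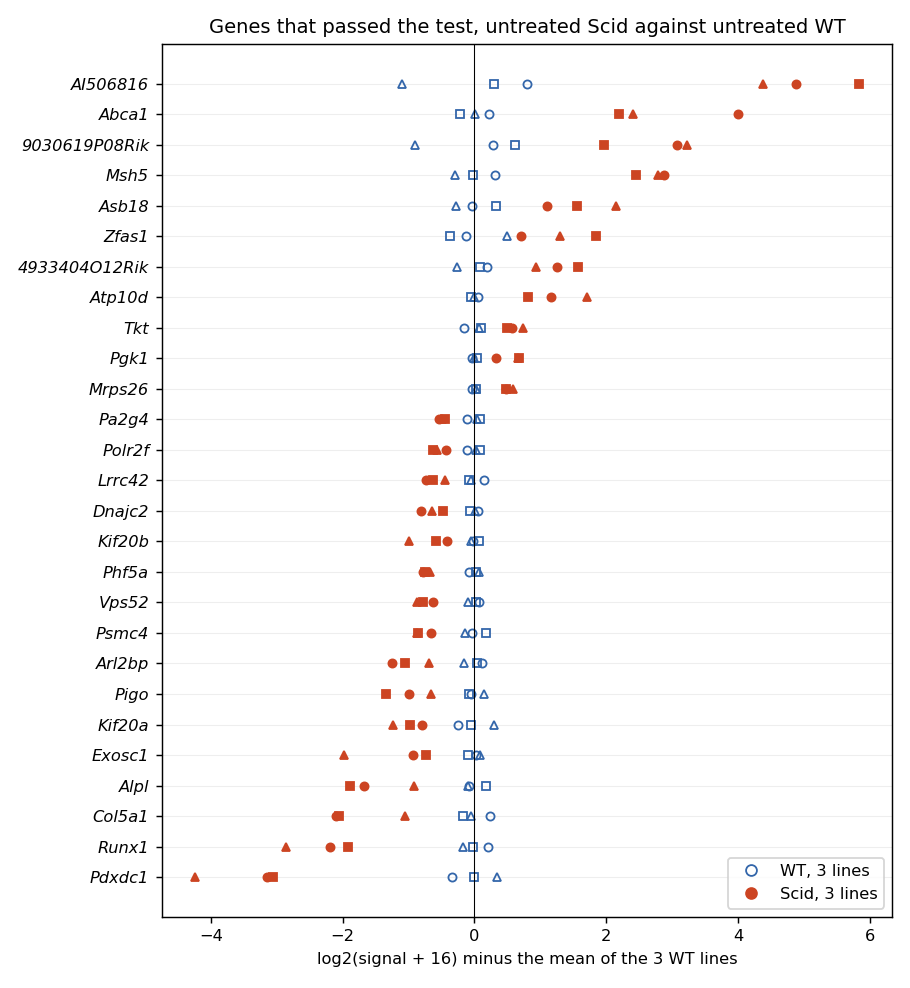
Log2(signal + 16) of each called gene in the 3 WT lines (open blue) and 3 Scid lines (filled red), drawn relative to the WT mean; rows are genes, ordered by difference. In all 27 genes the Scid points lie to one side of the WT points, from a mean of -3.48 for Pdxdc1 to 5.03 for AI506816.

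Pdxdc1, which encodes a protein with a pyridoxal-dependent decarboxylase domain, gave the smallest p and lies on chromosome 16 with Prkdc, 11 measured genes away. Its probe set 1452705_at read 685, 860 and 1107 in the WT lines and 83.2, 90.5 and 30.8 in the Scid lines, a difference of -3.48 ± 0.23 (limma adjusted p = 2.2e-07). The 3 Scid lines lay far below every WT line and below the 15 arrays of the other mutants, which ranged from 650 to 1155. The other probe sets of Pdxdc1 did not tell 1 story. Probe set 1428200_a_at was also lower, at 192, 133 and 112 in WT and 46.8, 11.5 and 11.2 in Scid. Probe set 1419327_at went the other way, from 33.5, 56.8 and 33.3 in WT to 1543, 1458 and 1362 in Scid. Probe set 1436372_a_at overlapped, with 260, 301 and 306 in WT and 242, 297 and 316 in Scid. The direction therefore holds for 2 of the 4 probe sets, and the level of the whole gene cannot be read from them.

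Of the 80 measured genes nearest to Prkdc, 40 on each side, Pdxdc1 was called and no other; the median difference was 0.03, beside 0.01 over all genes tested. Nde1, a dynein regulator of the same region, read 1791, 1758 and 1670 in WT and 1389, 1121 and 1195 in Scid (-0.49 ± 0.11, limma adjusted p = 0.082). Ercc4, a nuclease of excision repair, read 245, 279 and 196 in WT and 334, 427 and 423 in Scid (0.69 ± 0.19, limma adjusted p = 0.14). Neither passed, although their arrays did not overlap. Of the 80 genes, 6 were higher and 7 lower without overlap, beside 8.75% higher and 7.63% lower over all genes.

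Runx1, a transcription factor of blood cell development and early B cells, was the other called gene on chromosome 16. Probe set 1422864_at read 1899, 1620 and 1463 in the WT lines and 351, 427 and 213 in the Scid lines, a difference of -2.32 ± 0.24 (limma adjusted p = 6.7e-05). All Scid lines were below all WT lines and below the other mutants (1027 to 2063). The 5 other kept probe sets of Runx1 differed less. Of these, 1440878_at read 448, 319 and 381 in WT and 164, 254 and 189 in Scid (-0.88), and 1422865_at read 814, 625 and 716 against 391, 576 and 410 (-0.64), neither called in a fit over all probe sets. The remaining probe sets overlapped, with differences of -0.17, 0.05 and 0.18. The drop of this size was thus seen with 1 of 6 probe sets.

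Msh5, a MutS homologue needed for meiotic recombination, was higher in Scid with both of its probe sets. The brighter read 121, 93.1 and 74.1 in WT and 799, 591 and 744 in Scid, a difference of 2.71 ± 0.24 (limma adjusted p = 1.1e-05). The dimmer read 12.3, 46.7 and 8.17 in WT and 204, 204 and 233 in Scid. The other mutants lay between 87.1 and 179 on the brighter probe set, near WT. Msh5 lies on chromosome 17 in the region of the major histocompatibility complex (MHC). So does Vps52, a subunit of the GARP tethering complex of the Golgi, which was lower in Scid at 383, 342 and 320 against 626, 612 and 561 in WT (-0.76 ± 0.14, limma adjusted p = 0.029).

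**Figure D2:**
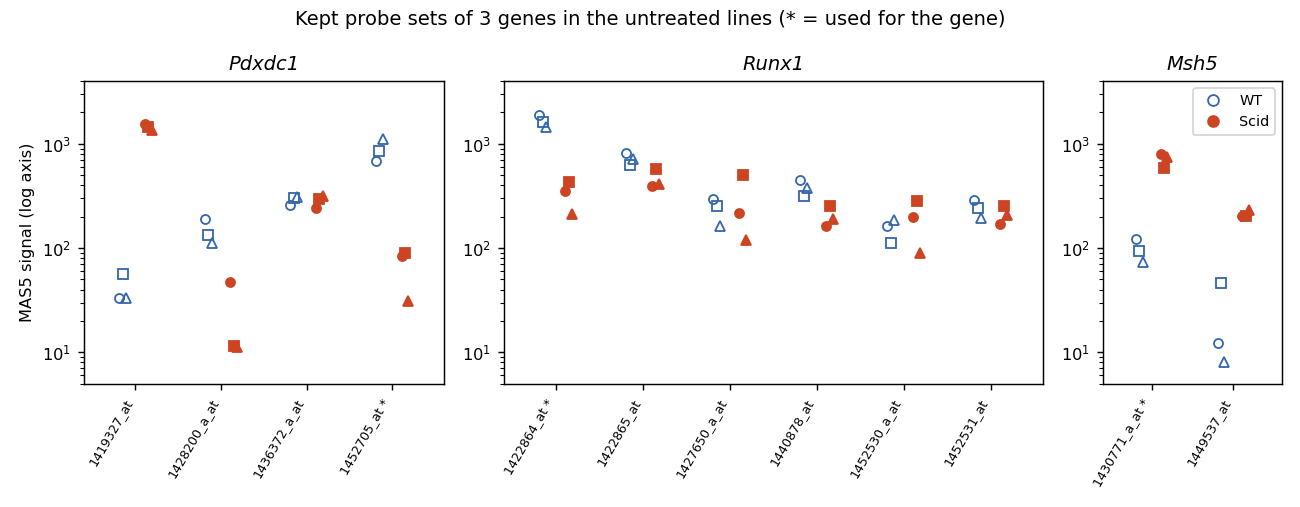
MAS5 signal (log axis) of every kept probe set of Pdxdc1, Runx1 and Msh5 in the 3 WT lines (open blue) and 3 Scid lines (filled red); an asterisk marks the probe set used for the gene. Pdxdc1 probe set 1419327_at is high in Scid (1362 to 1543) where 1452705_at is low (30.8 to 90.5), and both probe sets of Msh5 are higher in Scid.

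Among the other genes called higher, the non-coding RNA AI506816 was dim in WT at 76.1, 49.0 and 8.82 and reached 1536, 3011 and 1079 in Scid, a difference of 5.03 ± 0.53 (limma adjusted p = 7.2e-05). The other mutants reached at most 148. Abca1, the pump that exports cholesterol from cells, read 19.3, 9.99 and 14.5 in WT and 469, 122 and 145 in Scid (2.86 ± 0.52, limma adjusted p = 0.025). The transcribed pseudogene 9030619P08Rik read 70.6, 92.3 and 22.1 against 582, 262 and 644 (2.75 ± 0.54, limma adjusted p = 0.041). In these 3 genes the WT levels were near or below the array medians, so the size of the difference rests on dim signals. A probe set was kept only if it exceeded the array median on at least 3 untreated arrays. Abca1 would not have met this without its Scid arrays. Outside Scid only an Mre11A array exceeded its median, at 71.2 beside Mre11A medians of 65.3 to 69.0. Its call and its place among the largest differences thus rest partly on that filter. Atp10d, a gene of the phospholipid flippase family that RefSeq lists as a transcribed pseudogene in its mouse assembly, was well above the array medians in both groups, with 602, 554 and 577 in WT and 1306, 1026 and 1913 in Scid (1.22 ± 0.22, limma adjusted p = 0.025). The other mutants reached 1496 for Atp10d, within the Scid range. For 9030619P08Rik they reached 340, above Scid line 2 (262).

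Smaller increases were called for Zfas1, a non-coding host of small nucleolar RNAs (1663, 1413 and 2581 in WT; 2976, 6564 and 4511 in Scid; 1.28 ± 0.25), for the non-coding RNA 4933404O12Rik (1.25 ± 0.22) and for Asb18, a SOCS-box protein that was dim in both groups (15.8, 25.2 and 10.9 in WT; 54.1, 80.1 and 130 in Scid; 1.60 ± 0.32). Mrps26, a protein of the mitochondrial ribosome, rose from 2031, 2116 and 2113 in WT to 2903, 2909 and 3147 in Scid (0.51 ± 0.10). Zfas1, Asb18 and Mrps26 were not called against the mean of the other mutants: those arrays ranged from 2443 to 8507 for Zfas1, 23.8 to 95.7 for Asb18 and 2218 to 2834 for Mrps26. For Zfas1 the difference from the mean of the mutants was -0.05, and WT line 4 (2581) lay within the range of the mutants. For 4933404O12Rik the other mutants reached 892, above Scid line 3 (809).

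Genes called lower included several that act in the handling of RNA and protein. Phf5a, a small subunit of the SF3b splicing complex, fell from 5603, 5999 and 6203 in WT to 3427, 3530 and 3708 in Scid (-0.74 ± 0.11, limma adjusted p = 0.0043). Psmc4, an ATPase of the proteasome cap, fell from 8792, 10244 and 8185 to 5688, 5003 and 4930 (-0.80 ± 0.12, limma adjusted p = 0.0064). Exosc1, a subunit of the RNA exosome, fell from 3417, 3137 and 3570 to 1761, 2026 and 845 (-1.21 ± 0.22). Dnajc2, a chaperone at the ribosome, fell by 0.64 and Polr2f, a subunit shared by the RNA polymerases, by 0.55 on the log2 scale. These genes were picked out by role after their values were seen, and no theme was tested.

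The remaining genes called lower differ in function. Alpl, the tissue-nonspecific alkaline phosphatase, fell from 2216, 2641 and 2192 in WT to 718, 620 and 1236 in Scid (-1.49 ± 0.20, limma adjusted p = 0.0022). Arl2bp, a partner of the small GTPase Arl2, fell from 2881, 2745 and 2382 to 1110, 1278 and 1652 (-0.99 ± 0.16), and Pigo, an enzyme of GPI anchor synthesis, from 905, 887 and 1042 to 464, 364 and 588 (-0.999 ± 0.19). Col5a1, a fibrillar collagen chain, was dim, at 131, 94.7 and 104 in WT and 13.2, 14.2 and 44.5 in Scid (-1.73 ± 0.34, limma adjusted p = 0.041). Lrrc42 fell by 0.61. For Pigo the untreated Mdc1 lines read 457 to 725, which overlapped the Scid range. For Col5a1 the lowest untreated 53bp1 line read 43.2, below Scid line 3 (44.5). Exosc1, Kif20b, Pigo and Polr2f each had 1 further kept probe set that was higher in Scid, by 0.46, 0.51, 0.06 and 0.82, none called.

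Against the Atm lines 186 genes were called (1.62%) and against the mean of the other mutants 1577 (13.7%). These comparisons share the Scid arrays with the one against WT, so values are given side by side without further reading. Pdxdc1 differed by -3.72 from Atm and -3.42 from the other mutants, Runx1 by -2.18 and -1.99, Msh5 by 2.27 and 2.35, AI506816 by 6.29 and 4.95 and Alpl by -1.50 and -1.59, all called with limma. Tkt, Pgk1, Mrps26, Zfas1, Asb18, 4933404O12Rik and Col5a1 were not called against Atm.

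The same 6 lines were measured again after 1 Gy, on arrays that the untreated comparison did not use; these are not new lines. There 15 genes were called (0.131%). Of the 27 genes, 26 had the same sign after irradiation, 21 again had arrays that did not overlap in the same direction (13.4% of all genes did so in either direction) and 12 were called again. Pdxdc1 differed by -3.38, AI506816 by 5.64, Msh5 by 2.57, Runx1 by -1.77, Alpl by -1.62 and Arl2bp by -1.07. Col5a1 was the exception in sign, with 0.07 after irradiation, and the difference of Asb18 was 0.23. Whether the difference itself changed with radiation was tested with limma on the paired arrays of each line: 0 of the 27 genes were called, while 5 had an unadjusted p under 0.05, among them Col5a1 (adjusted p = 0.57) and Asb18 (adjusted p = 0.41).

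**Figure D3:**
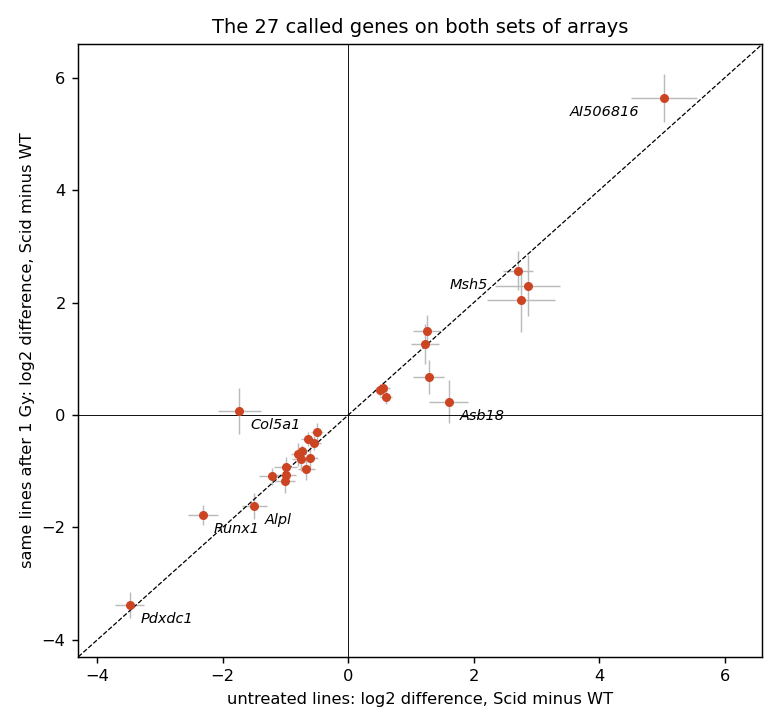
Log2 difference of Scid minus WT for the 27 called genes in untreated lines (x axis) and in the same lines after 1 Gy (y axis), with standard errors and the line of equal values. Col5a1 lies near 0 after irradiation (0.07) and Asb18 at 0.23, while Pdxdc1 and AI506816 keep differences of -3.38 and 5.64.

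The partners of DNA-PKcs in end joining did not pass the test. Of 14 measured NHEJ genes none was called by limma, and the median difference was -0.02. At an unadjusted limma p under 0.05, 1 was higher and 2 lower, beside 6.47% and 5.53% over all genes. Nhej1, which encodes the bridging factor XLF, read 128, 72.9 and 102 in WT and 65.7, 53.0 and 56.5 in Scid (-0.63 ± 0.23, adjusted p = 0.26). Xrcc5, the Ku80 subunit, read 825, 808 and 772 against 659, 468 and 639 (-0.45 ± 0.19, adjusted p = 0.35), and Paxx, an XLF-like scaffold, 418, 328 and 372 against 461, 550 and 442 (0.36 ± 0.14, adjusted p = 0.30). The arrays of these 3 genes did not overlap between the groups, which was so for 8.75% of all genes in the higher and 7.63% in the lower direction. Xrcc6, the Ku70 subunit, differed by -0.13, Xrcc4 by -0.18 and Lig4, the ligase of the pathway, by -0.10. The end-processing genes Aptx, Poll, Aplf, Tdp2, Polm and Tdp1 differed by 0.28, 0.33, 0.32, -0.10, 0.09 and 0.01.

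The other genes targeted in the series were likewise uncalled. Atm read 796, 815 and 752 in WT and 611, 511 and 632 in Scid, without overlap (-0.42 ± 0.23, limma adjusted p = 0.51). Trp53bp1, H2ax, Mre11a and Mdc1 differed by -0.10, 0.08, -0.01 and 0.00. Among 25 measured genes of break signalling none was called, and 17 lay below 0, beside 5464 of 11471 over all genes. At an unadjusted limma p under 0.05, 2 were lower, beside 5.53% over all genes. Paxip1, an adaptor of the 53BP1 pathway, read 1811, 1704 and 1543 in WT and 1250, 1182 and 1309 in Scid (-0.43 ± 0.11, limma adjusted p = 0.10). Of 34 measured p53 targets none was called, and the median difference was 0.00. At an unadjusted limma p under 0.05, 2 of these targets were lower, beside 5.53% over all genes.

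The V(D)J recombinase genes were low in all Scid lines, and in 1 WT line too. Rag1 read 1579, 1190 and 299 in WT lines 1, 3 and 4 and 376, 125 and 401 in Scid lines 1, 2 and 3 (-1.57 ± 0.66, limma adjusted p = 0.35). Rag2 followed the same order, with 566, 563 and 89.1 in WT and 94.5, 10.1 and 119 in Scid (-2.17 ± 0.84, limma adjusted p = 0.30). WT line 4 lay within the Scid range for both genes, so the groups overlapped and neither was called. The other mutants spanned 136 to 1541 for Rag1 and 27.8 to 849 for Rag2. Dntt, which adds bases at the joined ends, differed by 0.14 ± 0.89, and Hmgb2, a cofactor of the recombinase, by 0.03.

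The sequences before the start sites of Rag1, Rag2 and Runx1 are shown because the recombinase genes are neighbours on chromosome 2 that varied together, and because Runx1 is a called transcription factor of the lineage whose family binds the motif TGTGGT. They are the 250 bases upstream from RefSeq (GRCm38.p6), 5′ to 3′ on the strand of the gene; Runx1 has 2 entries. Capitals mark TGTGGT or its reverse complement ACCACA.
Rag1, chr2:101649533-101649782, minus strand: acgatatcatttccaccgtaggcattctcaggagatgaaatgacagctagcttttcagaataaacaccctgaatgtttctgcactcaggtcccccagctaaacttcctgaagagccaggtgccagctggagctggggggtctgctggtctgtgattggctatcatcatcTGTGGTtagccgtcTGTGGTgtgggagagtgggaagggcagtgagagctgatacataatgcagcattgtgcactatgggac
Rag2, chr2:101624462-101624711, plus strand: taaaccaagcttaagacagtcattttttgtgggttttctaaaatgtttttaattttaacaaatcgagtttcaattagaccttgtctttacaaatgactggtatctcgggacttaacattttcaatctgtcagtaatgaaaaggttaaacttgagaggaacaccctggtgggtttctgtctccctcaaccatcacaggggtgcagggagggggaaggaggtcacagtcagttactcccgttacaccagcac
Runx1, chr16:92826075-92826324, minus strand: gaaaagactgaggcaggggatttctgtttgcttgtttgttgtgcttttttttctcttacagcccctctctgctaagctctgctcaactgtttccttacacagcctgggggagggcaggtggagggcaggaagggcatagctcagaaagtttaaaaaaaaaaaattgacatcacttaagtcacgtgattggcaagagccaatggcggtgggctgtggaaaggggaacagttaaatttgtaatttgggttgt
Runx1, chr16:92697330-92697579, minus strand: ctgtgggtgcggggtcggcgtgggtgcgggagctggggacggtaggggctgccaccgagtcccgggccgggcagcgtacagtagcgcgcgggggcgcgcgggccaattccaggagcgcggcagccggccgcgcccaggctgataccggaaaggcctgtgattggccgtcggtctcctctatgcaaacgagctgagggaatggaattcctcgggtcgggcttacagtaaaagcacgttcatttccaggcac
The Rag1 window held the motif at 2 places, starting 81 and 67 bases before the start site, and the windows of Rag2 and Runx1 held none. Of 32851 windows of this length of RefSeq, 14.05% held at least 1 copy and 1.27% at least 2. A match describes the letters only, and no binding was measured.

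Ighm and the median of the B-lineage transcription factors varied mainly with 1 Scid line. Ighm, the constant region of the mu heavy chain, read 10752, 17701 and 24918 in WT and 12421, 150 and 20640 in Scid lines 1, 2 and 3. Scid line 2 alone was low, and the groups overlapped (-2.27 ± 1.10, limma adjusted p = 0.43). A second bright probe set of Ighm was also low in Scid line 2, at 216 against 7327 and 14678 in the other Scid lines. The Ighm probe set of smallest p had the opposite sign, higher in Scid, as the closing paragraph gives. Id3, an inhibitor of E proteins, read 1765, 2488 and 1330 in WT and 979, 321 and 1310 in Scid (-1.25 ± 0.37, limma adjusted p = 0.16). Tcf3, which encodes the E proteins E12 and E47, read 2230, 2534 and 2166 against 1913, 1409 and 1743 (-0.46 ± 0.14, limma adjusted p = 0.16). Neither overlapped and neither passed. Irf8 differed by 0.79 ± 0.25 (limma adjusted p = 0.19). Of 26 measured B-lineage transcription factors Runx1 was called lower and none higher. At an unadjusted limma p under 0.05, 7 were lower and 2 higher, beside 5.53% lower and 6.47% higher over all genes. The arrays of 5 lower genes and 1 higher gene did not overlap, beside 7.63% lower and 8.75% higher over all genes. The median difference of the 26 genes was -0.06. Line by line against the WT mean it was 0.07 in Scid line 1, -0.73 in line 2 and 0.07 in line 3. Without line 2 it was 0.05. Without Scid line 1, Scid line 3 or WT line 4 it was -0.24, -0.19 and -0.19, and without WT line 1 it was 0.0027. Of 13 measured genes of the pre-B receptor and immunoglobulins none was called. At an unadjusted limma p under 0.05, 3 of them were higher, beside 6.47% over all genes. Of 20 measured B-lineage surface markers none was called. Line by line against the WT mean, the median of the surface markers was -0.04, 0.06 and 0.14 in Scid lines 1, 2 and 3.

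**Figure D4:**
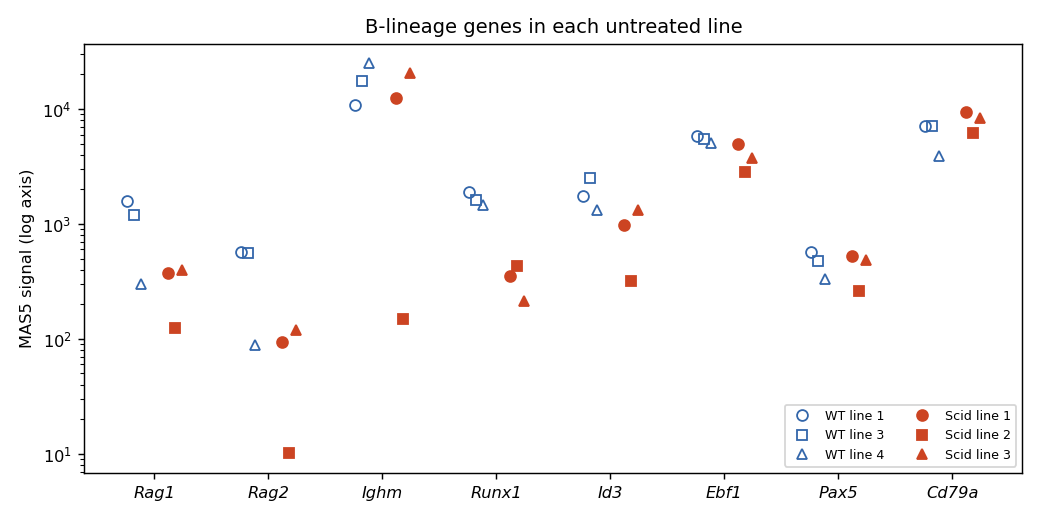
MAS5 signal (log axis) of 8 B-lineage genes in each untreated line; shapes mark the lines, open blue for WT and filled red for Scid. WT line 4 lies with the Scid lines for Rag1 (299) and Rag2 (89.1), and Scid line 2 is low for Ighm (150) and Id3 (321).

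Scid line 2 also carried signal of some T-cell genes. Cd28, a costimulatory receptor, read 87.1, 48.6 and 101 in WT and 269, 1407 and 278 in Scid (2.42 ± 0.72, limma adjusted p = 0.16). Cd5 and Lat, a surface receptor and a signalling adaptor, reached 717 and 1314 in Scid line 2 and at most 66.3 and 296 in the other lines. The defining markers stayed low in that line: Cd3e read 41.8, Cd3d 9.27 and Cd3g 2.77. Over the 13 T-cell markers on the array the summed signal was 674 to 825 in WT and 777 to 3887 in Scid, and 8 of the 13 were under the array median on all 6 arrays. Summed markers overlapped between the groups for NK cells (168 to 545 in WT, 211 to 376 in Scid), myeloid cells (895 to 1378 and 1002 to 3494), erythroid cells and megakaryocytes (20129 to 28057 and 21265 to 24678), stem and progenitor cells (1179 to 1840 and 1196 to 1717) and stromal cells (12561 to 15371 and 10666 to 16784), and no member of these lists was called by limma. Of their measured members 1 was lower at an unadjusted p under 0.05, the transferrin receptor gene Tfrc (-0.37), as was Cd28 in the other direction. The part of these markers in the other differences was not tested.

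Pgk1 and Tkt, genes of sugar metabolism, were called higher in Scid. Pgk1, a glycolytic kinase, read 22308, 23424 and 22791 in WT and 28749, 36559 and 36196 in Scid (0.56 ± 0.11, limma adjusted p = 0.048). Tkt, the transketolase of the pentose phosphate pathway, read 22011, 26282 and 25844 against 36740, 34661 and 41007 (0.60 ± 0.10, limma adjusted p = 0.0088). For Pgk1 the untreated Atm lines read 30485 to 33039, within the Scid range. Of 24 measured genes of glycolysis and hypoxia, a list that does not hold Tkt, 1 was called higher and none lower. In this list 20 lay above 0, beside 6007 of 11471 over all genes. At an unadjusted limma p under 0.05, 9 were higher and 1 lower, beside 6.47% and 5.53% over all genes. Without overlap, 7 were higher and 2 lower, beside 8.75% and 7.63%. Differences ran from -2.35 to 2.02, and the median difference was 0.35 beside 0.01 over all genes. Line by line against the WT mean, the median was 0.07 in Scid line 1, 0.50 in line 2 and 0.46 in line 3. Ldha, lactate dehydrogenase, differed by 0.34 ± 0.10 and Hk1, a hexokinase, by 0.81 ± 0.26, both without overlap and uncalled (limma adjusted p = 0.16 and 0.20). Under quantile normalization the list's median was 0.21 and both calls were lost, with limma adjusted p of 0.54 for Pgk1 and 0.093 for Tkt.

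Of 17 measured genes of sterol synthesis 13 lay above 0, beside 6007 of 11471 over all genes. At an unadjusted limma p under 0.05, 8 were higher, beside 6.47% over all genes. None was called, and the median difference was 0.41 (0.44 under quantile normalization). Mvk, mevalonate kinase, read 210, 177 and 223 in WT and 305, 313 and 392 in Scid (0.68 ± 0.18, limma adjusted p = 0.13). Fdps, farnesyl diphosphate synthase, read 6201, 6595 and 5989 against 7152, 11881 and 9442 (0.57 ± 0.18, limma adjusted p = 0.19). Set against the WT mean 1 line at a time, the list's median was 0.05 in Scid line 1, 0.65 in line 2 and 0.46 in line 3.

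Ribosomal protein genes, a list added after values were seen, were nearly all slightly higher, and this depended on the scaling. Of 41 measured genes 39 lay above 0, beside 6007 of 11471 over all genes. None was called, and the median difference was 0.38. At an unadjusted limma p under 0.05, 36 were higher and 1 lower, beside 6.47% and 5.53% over all genes. Under quantile normalization the median was 0.02 and 27 lay above 0. Rps24 was nearest to a call (0.46 ± 0.09, limma adjusted p = 0.0504).

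Antigen presentation and the interferon response did not pass either. Of 13 measured genes of MHC class I and antigen processing 11 lay above 0, beside 6007 of 11471 over all genes. At an unadjusted limma p under 0.05, 4 were higher, beside 6.47% over all genes. None was called, and the median was 0.38 (0.24 under quantile normalization). It was 0.20 without Scid line 1, and line by line 0.56, 0.25 and 0.07 in Scid lines 1, 2 and 3. H2-M3, a class I gene that presents formylated peptides, read 734, 1250 and 1607 in WT and 1957, 2478 and 2137 in Scid (0.93 ± 0.28, limma adjusted p = 0.16). H2-D1 differed by 0.39 ± 0.13 and the immunoproteasome gene Psmb9 by 0.47 ± 0.18. Gbp2, an interferon-induced GTPase, read 1053, 912 and 1773 in WT and 571, 200 and 174 in Scid (-2.07 ± 0.50, limma adjusted p = 0.094). Of 28 measured interferon-response genes none was called, with a median of -0.08. At an unadjusted limma p under 0.05, 4 of the 28 were lower, beside 5.53% over all genes.

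The mitotic kinesins Kif20a and Kif20b were called lower in Scid. Kif20a, a kinesin of cytokinesis, read 1890, 2182 and 2779 in WT and 1288, 1135 and 949 in Scid (-1.01 ± 0.16, limma adjusted p = 0.0088). Kif20b, a related kinesin, read 2256, 2398 and 2210 against 1703, 1526 and 1137 (-0.67 ± 0.13, limma adjusted p = 0.043). Of 31 measured genes of G2/M and mitosis 27 lay below 0, beside 5464 of 11471 over all genes. Kif20a was called lower, beside 0.139% over all genes, and none was called higher. At an unadjusted limma p under 0.05, 4 were lower, beside 5.53% over all genes. The arrays of 5 lower genes did not overlap, beside 7.63% over all genes. The median was -0.13. Line by line the median was -0.08 in Scid line 1, -0.33 in line 2 and 0.06 in line 3, where 19 of the 31 lay above 0. It was -0.035 without Scid line 2 and -0.077 without WT line 3. Kif11, the kinesin of spindle assembly, differed by -0.43 ± 0.12 (limma adjusted p = 0.15). Of 34 measured genes of G1/S and replication none was called; E2f2, an E2F transcription factor, read 1525, 1873 and 1478 in WT and 1233, 482 and 915 in Scid (-0.97 ± 0.24, limma adjusted p = 0.094). Cdkn2b, the inhibitor p15, reached 2321 in Scid line 2 and was 61.2 to 511 in the other 5 lines.

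**Figure D5:**
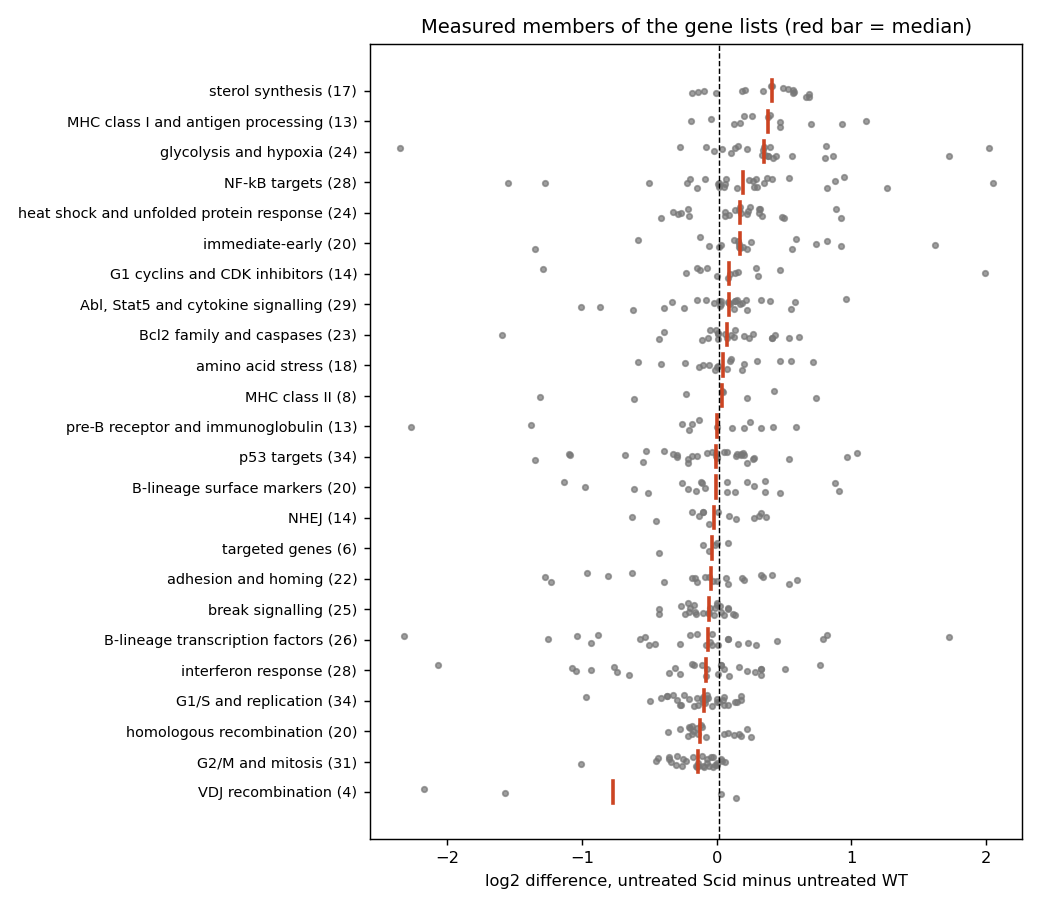
Log2 difference of untreated Scid minus untreated WT for each measured member (grey points; number in brackets) of the pathway and B-lineage lists (markers of other cell types, among them T cell markers with a median of 1.23, sex-linked genes, ribosomal proteins and neighbours of Prkdc are not drawn), with the list's median as a red bar and the median of all genes as a dashed line. Medians of the lists drawn run from -0.77 for the 4 genes of V(D)J recombination to 0.41 for sterol synthesis, and most lie within 0.2 of 0.

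Signalling and survival lists held no called gene. For the counts that follow, 6.47% of all genes were higher and 5.53% lower at an unadjusted limma p under 0.05. Of 28 measured NF-kB targets 2 were higher and 1 lower at an unadjusted p under 0.05, with limma calling none; Tnfaip3, a feedback inhibitor of NF-kB, read 211, 282 and 168 in WT and 399, 587 and 295 in Scid (0.88 ± 0.32, limma adjusted p = 0.27), and the chemokine gene Ccl3 differed by 2.05 ± 0.73 (limma adjusted p = 0.26). Of 23 measured genes of the Bcl2 family and caspases 1 was higher and 2 lower at an unadjusted p under 0.05; Apaf1, the scaffold of the apoptosome, differed by -0.39 ± 0.14, and Bok, a Bcl2 relative, was at 15.6 in Scid line 2 against 187 to 493 in the other lines. Of 29 measured genes of Abl, Stat5 and cytokine signalling 1 was lower at an unadjusted p under 0.05, Stat5b (-0.39 ± 0.16, limma adjusted p = 0.35). Of 24 measured genes of heat shock and the unfolded protein response 5 were higher at an unadjusted p under 0.05 and none was called.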

How the data were processed

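RNA of each line was hybridized to an Affymetrix array after One-Cycle cDNA synthesis with biotin, per the labels' protocols. The deposited values are intensities of probe sets, which MAS5 computed, per the submitters' processing notes; scaling to a 2% trimmed mean of 500 on each array was found from the values. Of 45101 probe sets, 64 were controls, 34945 had a single gene symbol in the platform annotation, 932 several and 9160 none. A probe set was kept if it exceeded its array's median on at least 3 of the 21 untreated arrays (26268 kept, 21755 with 1 symbol). The kept probe set of highest mean stood for each gene (11471 genes, 5665 with several). RefSeq (GRCm38.p6) gave chromosomes and promoter sequences and matched 11422 of the genes.

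Log2(signal + 16) was fitted with limma 3.58.1 in R 4.3.3 (with the data.table package, version 1.17.8): 7 group means over the 21 untreated arrays, 14 residual degrees of freedom, variances moderated with a trend, two-sided p, Benjamini-Hochberg adjustment over all genes, threshold 0.05. Irradiated arrays were fitted alike on their own. The script was tested on simulated data. Gene lists are described by counts and medians. The members and lists were chosen with earlier results of these data known. The genes named are the 15 largest called differences on each side, up to 4 members of each list by p, and all measured genes of the targeted, NHEJ and V(D)J lists. The number of arrays, 3 a group, limits the precision. The deviations of both arrays of a line correlated at 0.425 to 0.698 (6 pairs), so the radiation interaction was fitted on paired arrays, an addition made after the data were seen. Equal numbers across genotypes mark different lines (r -0.009 and 0.054). Plots used matplotlib 3.10.9 and sequences were searched with pandas 2.3.3, both in Python 3.11.15. The closing paragraphs give the alternatives of scaling, filter, pseudocount, arrays and probe sets.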

Additional observations from a re-analysis of the deposited data

Results flagged for a closer look

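Signals outside the gene-level comparison separated the groups. Probe set 1419327_at of Pdxdc1, which was not the one used for the gene, was higher in Scid by 4.71 on the log2 scale, against the lower level of the probe set used. A limma fit was run over all 26268 kept probe sets, of which 21755 had 1 symbol. Among the rest 18 were called and had no gene name usable here (13 without a symbol, 5 with several). Of these 18, 13 were higher and 5 lower in Scid. Among those without a symbol, 1425584_x_at differed by 4.17, 1425583_at by 6.29 and 1436240_at by -1.18. The genes they measure were not analysed here. Some of the 18 were bright with small differences, such as 1416519_at. It read 26393 to 31056 in WT and 37070 to 40308 in Scid, a difference of 0.44. Whether such calls hold under another scaling was not tested.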

How the results depend on the processing

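All 27 genes called against WT kept their sign under each of the 12 alternatives that tested them, where the alternative with every kept probe set reads a gene by its probe set of smallest p (further kept probe sets of Pdxdc1, Runx1, Exosc1, Kif20b, Pigo and Polr2f have the opposite sign), and without each array in turn, but the number of calls moved. Against 27 it was 14 without the filter on dim probe sets (all of them among the 27), 48 with all 42 arrays taken as independent, 71 with the line as a random block, 43 with every kept probe set tested and 2 with only the 6 arrays; the other settings gave 22 to 27, and 19 with the replicate block, 12 of them shared. Without 1 array the count ran from 9 to 57. Against Atm, 186 became 93 without the filter, 146 with the replicate block and 83 to 258 without 1 array; against the other mutants, 1577 became 1582 with the block and 793 to 1087 without 1 Scid array. On irradiated arrays, 15 became 9 with centring on the 75th percentile, 8 without the variance trend, 9 with the replicate block and 8 to 49 without 1 array. The block cannot pair lines across genotypes, as equal numbers mark different lines. Of 160 genes the rule selects, 25 changed sign somewhere, none of them called; 12 of these are described. Under quantile normalization H2ax was -0.0145, Mre11a 0.0256 and Hmgb2 -0.0894; Mdc1 was 0.00087 with a pseudocount of 64, and Tdp1 -0.0055 with the 75th percentile. The replicate block gave Mre11a 0.0542 and Tdp2 0.0199, and every kept probe set Mre11a 0.29, Hmgb2 -0.26 and Ighm 0.52. Without 1 array the ranges were -0.21 to 0.0198 for Trp53bp1, -0.12 to 0.0801 for Mre11a, -0.49 to 0.67 for Dntt, -0.37 to 0.72 for Polm, -0.0415 to 0.15 for Hmgb2, -0.15 to 0.0945 for Mdc1, -0.37 to 0.16 for Xrcc6, -0.065 to 0.12 for Tdp1 and -0.53 to 0.42 for Lig4. The cause of these moves was not tested. Signals near background limit AI506816, Abca1 and Asb18, which left the comparison under the stricter filter.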
